A study of Homo sapiens with 20 samples.

Results

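POU2F1, POU2F2 and POU2F3 encode the octamer factors, and the regions called at these 3 genes were compared across 20 ChIP-seq peak lists from small cell lung cancer and multiple myeloma cell lines. A region belonged to the set when it overlapped the GRCh38 body of 1 of the genes or the 25 kb on either side. The rule took 340 of the 562813 regions in the 20 lists, with 140 at POU2F1, 88 at POU2F2 and 112 at POU2F3. Regions of different lists that overlapped were merged into sites, which gave 47 sites at POU2F1, 24 at POU2F2 and 23 at POU2F3, or 94 in all.

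Octamer factors share a bipartite POU domain, made of a POU-specific domain and a homeodomain, which reads an 8-base element called the octamer. POU2F1 (OCT1) is made in most tissues, POU2F2 (OCT2) is best known from B lymphocytes, and POU2F3 is the defining factor of tuft cells, the chemosensory cells of hollow organs, and of the tuft cell-like subtype of small cell lung cancer. The factors recruit small coactivators through the DNA-bound POU domain: POU2AF1 (OCA-B) works in B lineage cells, and POU2AF2 and POU2AF3 work in tuft cells.

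NCI-H526 and NCI-H1048 are lines of the POU2F3 subtype of small cell lung cancer (SCLC-P), and MM1.S and NCI-H929 are multiple myeloma lines. In NCI-H526, chromatin was precipitated with an antibody to POU2F3, or to the HA tag in cells that carried HA-tagged POU2F3 or HA-tagged POU2AF2. In NCI-H1048 the targets were POU2F3, HA-POU2F3 and an HA-tagged protein that the labels do not name (the study's supplement lists HA-POU2AF3 among its NCI-H1048 targets, but no label ties these lists to it), and in both myeloma lines they were POU2AF1 and IRF4, a factor that plasma cells depend on. The tagged proteins were expressed from lentiviral dTAG-HA constructs in Cas9 cells in which the study's methods removed the endogenous gene, so reads from the construct and from the edited gene cannot be told apart from those of the native gene where they share sequence. Each target was profiled in cells given DMSO and in cells given 1 µM AU-15330, a PROTAC that degrades SMARCA2 and SMARCA4, the ATPases of the mSWI/SNF chromatin remodelling complex. The labels put treatment between 4 and 6 h, and the titles name 6 h for the HA-POU2F3 and unnamed HA libraries of NCI-H1048 given AU-15330. Since 1 library was made per line, target and treatment, changes with treatment lack replicates and no p-value is given. Shares carry exact (Clopper-Pearson) 95% binomial intervals and ratios carry 95% counting intervals, and both cover counting error only.

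The fold of a region is its summit height over the local background, as the peak caller gave it. The level used below is the summit height over the background of the whole library, recovered from the deposited values. It is not corrected for the local background, so it can be high where that background is raised. Library backgrounds lay between 1.21 and 4.03 reads, and the AU-15330 library was at 0.502 of its DMSO library for the POU2F3 antibody in NCI-H526 and at 0.346 for HA-POU2AF2. For the POU2F3 antibody in NCI-H1048 it was at 1.34, the opposite imbalance, and for the other pairs with levels it was at 0.866 to 1.08. Retained and gained calls depend on this background as well as on binding. The unnamed HA lists hold no summits and therefore have folds but no levels. As a check of the lines, all 4 tuft cell genes examined (POU2F3 itself, GFI1B, ASCL2 and AVIL) held a region in each of the 6 SCLC DMSO lists, and all 4 plasma cell genes (IRF4, PRDM1, XBP1 and TNFRSF17) did in each of the 4 myeloma DMSO lists. The check separates the lines poorly, because 3 or 4 of the tuft cell genes also held a region in each myeloma DMSO list. ASCL2 held 0 regions with POU2AF1 in both myeloma lines.

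Octamer copies under strong regions are shown first, because the octamer is the element these factors read. Each sequence is from GRCh38, written 5′ to 3′ on the strand that reads the octamer, and shows the copy nearest to a summit with 20 bases on each side of its 7-base core. Capitals mark the full octamer, ATTTGCAT, or its core alone, TTTGCAT, where the leading A is missing, as well as any further copy in the stretch. Names give the gene and the distance of the region from the 5′ start of that gene.
POU2F3 start, chr11:120236414-120236460, plus strand: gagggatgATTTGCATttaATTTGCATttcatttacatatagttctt
POU2F3 +0.977 kb, chr11:120237644-120237690, minus strand: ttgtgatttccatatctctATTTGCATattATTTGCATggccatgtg
POU2F3 +8.9 kb, chr11:120245349-120245395, minus strand: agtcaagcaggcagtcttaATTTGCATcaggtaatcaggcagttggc
POU2F3 +18.6 kb, chr11:120255414-120255460, plus strand: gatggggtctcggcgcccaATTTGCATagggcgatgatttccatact
POU2F3 +47.8 kb, chr11:120284371-120284417, minus strand: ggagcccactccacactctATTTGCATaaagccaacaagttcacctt
POU2F3 +55.0 kb, chr11:120291657-120291703, minus strand: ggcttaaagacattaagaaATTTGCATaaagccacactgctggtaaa
POU2F2 +19.5 kb, chr19:42176930-42176976, minus strand: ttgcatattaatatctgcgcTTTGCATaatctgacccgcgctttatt
POU2F2 +19.5 kb, next copy, chr19:42176951-42176997, minus strand: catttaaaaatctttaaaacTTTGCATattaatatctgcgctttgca
POU2F1 +108 kb, chr1:167328748-167328794, minus strand: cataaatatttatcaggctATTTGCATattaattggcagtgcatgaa
POU2F1 +150 kb, chr1:167371310-167371356, minus strand: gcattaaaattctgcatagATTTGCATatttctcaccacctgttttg

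Not every copy near a POU2F3 summit is shown. Those at the start and at +0.977 kb stand in tandem on 1 strand. Both POU2F2 copies at +19.5 kb lack the leading A.

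The window of POU2F3 was densely covered by regions of the gene's own protein in SCLC. In DMSO, the POU2F3 antibody gave 13 regions at POU2F3 in NCI-H526 and 7 in NCI-H1048, HA-POU2F3 gave 9 in each line, HA-POU2AF2 gave 10 in NCI-H526, and the unnamed HA protein gave 5 in NCI-H1048. Per 100 kb, these densities were higher than those of 93.9% to 99.7% of protein-coding genes in the same lists. The window counts include regions at the neighbours TLCD5 and ARHGEF12. With the antibody in NCI-H526, the local background within 5 Mb was raised to 2.6 times the library background, against 1.3 over the whole list. In NCI-H1048 it was 1.16 against 1.26. The part this played in the densities was not tested. POU2F1 was covered alike in NCI-H526, where its density was higher than that of 95% of genes with the antibody, 94.7% with HA-POU2F3 and 91.6% with HA-POU2AF2, so a high density was not particular to POU2F3 in that line. With the antibody in NCI-H1048 it was not particular either, as POU2F1 stood above 90.8% of genes and POU2F3 above 94.5%. POU2F1 stood lower there with HA-POU2F3 (76.5%) and the unnamed HA protein (77.0%). In the myeloma DMSO lists POU2F3 held 3 to 7 regions, and its density was higher than that of 50.1% to 77.4% of genes. The map of regions along POU2F3 shows where they fell.

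**Figure D1:**
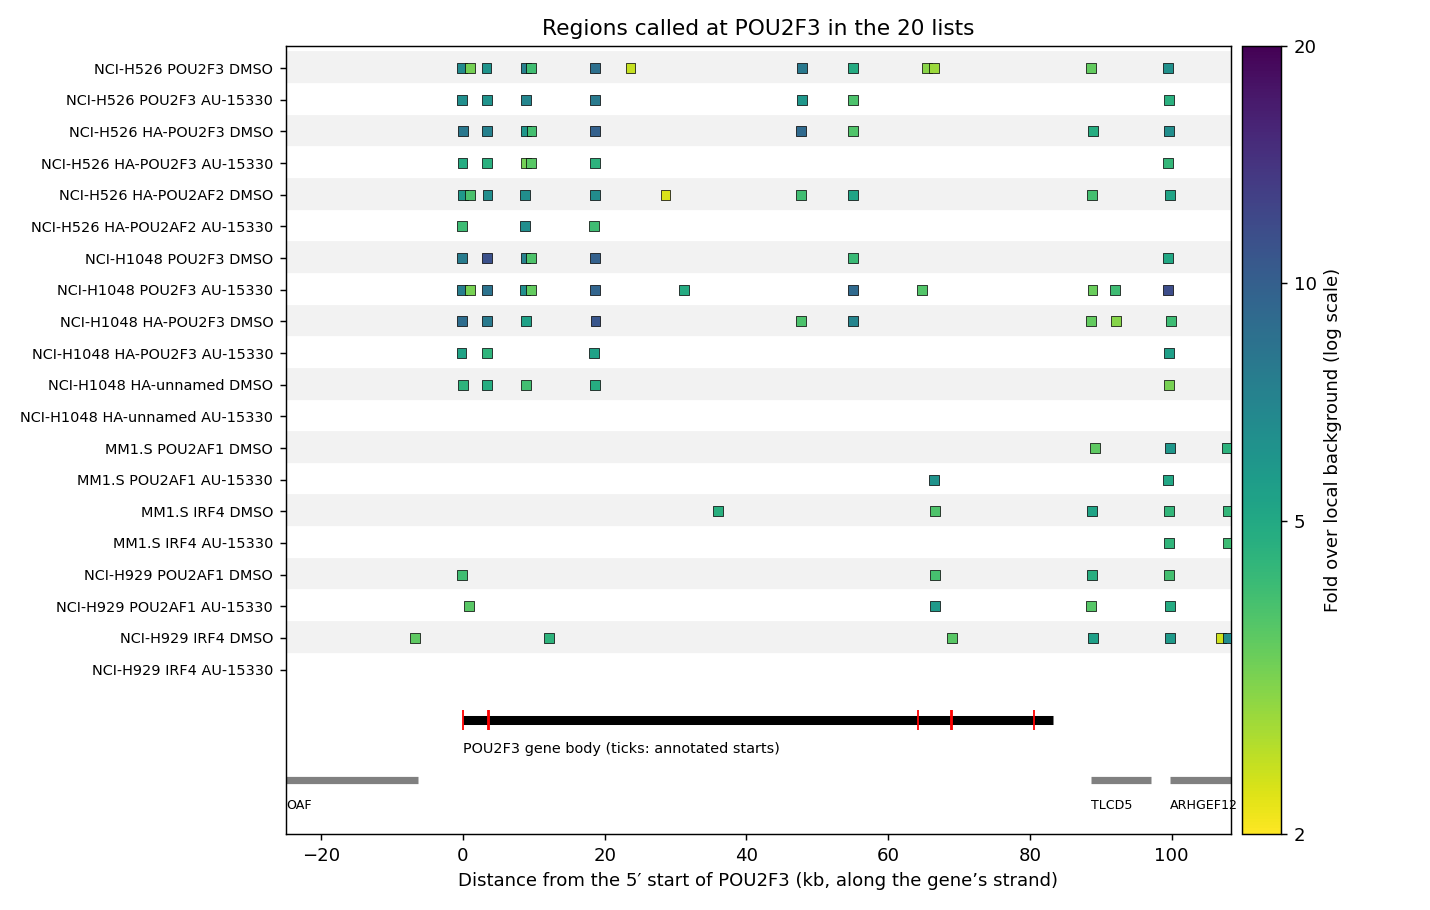
Regions called at POU2F3, plotted by distance from the gene's 5′ start (kb) in each of the 20 lists, with colour giving the fold over local background on a log scale; the gene body, its annotated starts and neighbouring genes are drawn below. SCLC lists share columns at the start and at +3.32, +8.9 and +18.6 kb that are nearly empty in the myeloma lists, while the column at the start of ARHGEF12 runs through 17 lists of both tumours.

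The region at the gene start, chr11:120236207-120237039, was called in all 6 SCLC DMSO lists and was kept with AU-15330 in 5 of them. With the POU2F3 antibody its level was 69.7 in DMSO and 53.8 in AU-15330 in NCI-H526, a ratio of 0.773 (95% interval 0.614 to 0.967). In NCI-H1048 the same antibody gave 30.5 and 36.9, a ratio of 1.21 (0.889 to 1.66). The change thus had opposite signs in the 2 lines, and the interval in NCI-H1048 includes no change. With HA-POU2F3 the level fell from 61.5 to 21.9 in NCI-H526, a ratio of 0.357 (0.253 to 0.497), and from 28.5 to 10.6 in NCI-H1048, a ratio of 0.37 (0.216 to 0.613). HA-POU2AF2 in NCI-H526 went from 33.5 to 13.2, a ratio of 0.395 (0.218 to 0.668). The unnamed HA protein had a fold of 4.53 in DMSO and no region in AU-15330. Among myeloma lists, the start was called once, with POU2AF1 in DMSO-treated NCI-H929, at a level of 11.1 and with its summit at chr11:120236441, which lies next to the tandem octamers shown above, and it was lost with AU-15330.

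A second region near annotated starts, at +3.32 kb, lies just before alternative starts and was seen in SCLC lists only. Its POU2F3 antibody level was 70.4 in DMSO and 55.8 in AU-15330 in NCI-H526, a ratio of 0.793 (0.632 to 0.989). In NCI-H1048 the levels were 48.6 and 43.8, a ratio of 0.902 (0.695 to 1.17). The antibody signal changed less than the tag signal in both lines. HA-POU2F3 fell from 66.1 to 23.7 in NCI-H526 (ratio 0.358, 0.257 to 0.492) and from 27.6 to 8.65 in NCI-H1048 (ratio 0.314, 0.174 to 0.541). HA-POU2AF2, at 41.3 in DMSO, and the unnamed HA protein, with a fold of 4.79, had no region here in AU-15330. The weaker neighbour at +0.977 kb, which holds tandem octamers, was called with the POU2F3 antibody in NCI-H526 (level 34.5) and with HA-POU2AF2 (22.6) in DMSO only, and with the POU2F3 antibody in NCI-H1048 (15.8) and POU2AF1 in NCI-H929 (9.31) in AU-15330 only.

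Within introns, the region at +8.9 kb was present in all 6 SCLC DMSO lists. Its POU2F3 antibody level changed from 56.8 to 42.0 in NCI-H526 and from 19.9 to 16.8 in NCI-H1048. HA-POU2F3 in NCI-H526 fell from 41.9 to 13.8, a ratio of 0.329, and HA-POU2AF2 went from 29.8 to 19.0, a ratio of 0.638 (0.388 to 1.01). It was lost for HA-POU2F3 in NCI-H1048, where its DMSO level was 14.0, and for the unnamed HA protein. The exonic neighbour at +9.59 kb was lost by the POU2F3 antibody in NCI-H526, where its DMSO level was 29.0, and was kept by HA-POU2F3 in NCI-H526 (26.5 and 14.6) and by the POU2F3 antibody in NCI-H1048 (9.71 and 8.23).

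The intronic region at +18.6 kb (chr11:120254667-120255801) was the region of highest fold at POU2F3 in 5 of the 6 SCLC DMSO lists. Its POU2F3 antibody level was 78.3 in DMSO and 54.8 in AU-15330 in NCI-H526, a ratio of 0.7 (0.558 to 0.871). In NCI-H1048 it was 38.4 and 40.2, a ratio of 1.05 (0.788 to 1.39). As at the start, only NCI-H526 lost antibody signal beyond counting error. HA-POU2F3 fell from 73.1 to 20.7 in NCI-H526 (ratio 0.283, 0.2 to 0.393) and from 40.2 to 10.6 in NCI-H1048 (ratio 0.263, 0.157 to 0.425). HA-POU2AF2 fell from 37.8 to 16.5 (ratio 0.437, 0.259 to 0.703). No myeloma list held a region there.

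Further into the gene, the regions at +47.8 kb and +55.0 kb were weaker. At +47.8 kb the POU2F3 antibody gave 28.3 in DMSO and 20.7 in AU-15330 in NCI-H526, while the DMSO regions of HA-POU2F3 (34.0 in NCI-H526 and 6.29 in NCI-H1048) and of HA-POU2AF2 (12.6) were lost. At +55.0 kb the antibody level was 14.6 and 13.3 in NCI-H526 (ratio 0.912, 0.556 to 1.46), but rose from 7.06 to 17.1 in NCI-H1048 (ratio 2.42, 1.36 to 4.55). The HA-POU2F3 regions at +55.0 kb, at 10.2 in NCI-H526 and 14.5 in NCI-H1048, were lost, as was that of HA-POU2AF2, at 16.0. The endogenous-antibody and tag libraries therefore differed here in whether a region was called at all.

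**Figure D2:**
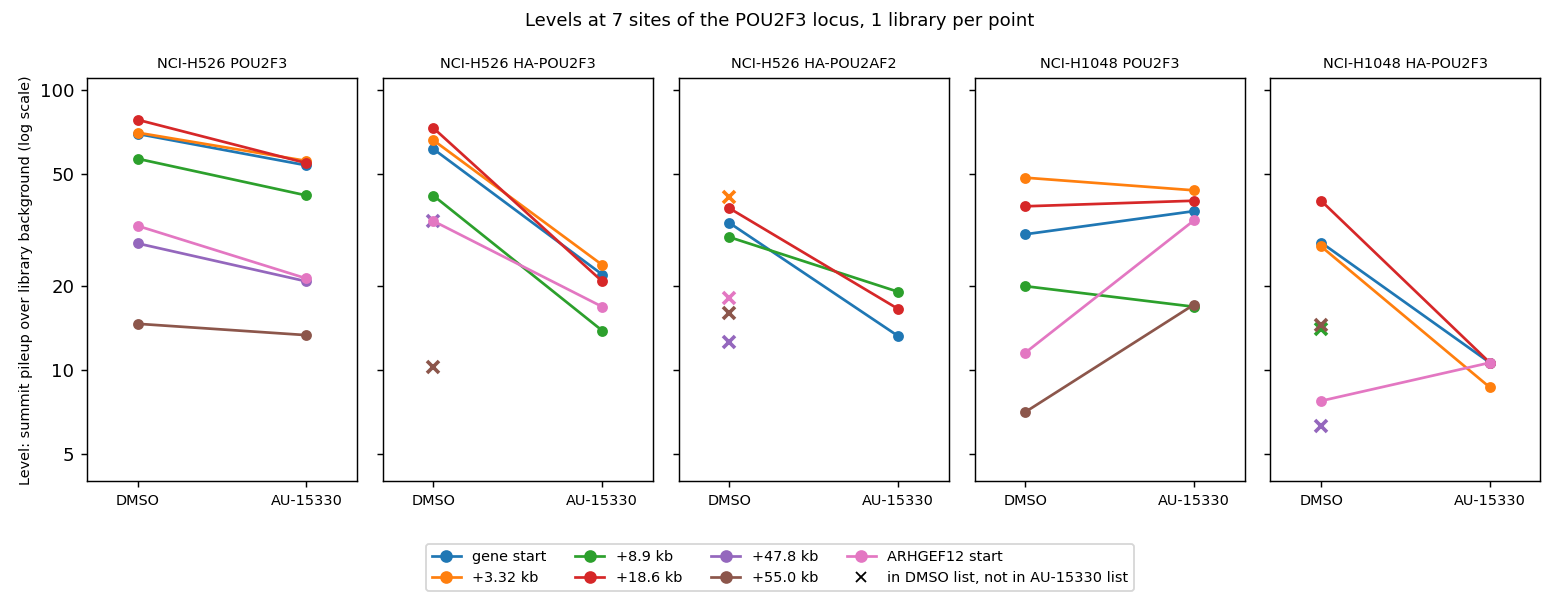
Level (summit height over library background, log axis) of 7 regions at POU2F3 in DMSO and AU-15330 for 5 SCLC pairs of lists, 1 library per point; lines join regions called in both treatments and crosses mark regions called in DMSO only. Lines for HA-POU2F3 and HA-POU2AF2 slope down except at the ARHGEF12 start in NCI-H1048, while those of the POU2F3 antibody in NCI-H1048 change little or rise.

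A region was counted as retained when a region of the matching AU-15330 list overlapped it by at least 1 base. Over the 3 genes, the POU2F3 antibody retained 17 of 48 DMSO regions in NCI-H526 (35.4%, 22.2 to 50.5), against 16.7% of the whole list. In NCI-H1048 it retained 15 of 21 (71.4%, 47.8 to 88.7), against 44.6%. HA-POU2F3 retained 15 of 36 in NCI-H526 (41.7%, 25.5 to 59.2), against 14.6%, and 5 of 15 in NCI-H1048 (33.3%, 11.8 to 61.6), against 7.72%. HA-POU2AF2 retained 3 of 26 (11.5%, 2.45 to 30.2), against 1.26%. The interval lay above the share of the whole list in these 5 SCLC pairs. The unnamed HA protein retained 0 of 10 (upper limit 30.8%), against 1.95%.

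The same counts were made in myeloma. POU2AF1 retained 7 of 19 regions in MM1.S (36.8%, 16.3 to 61.6), against 33.7%, and 9 of 17 in NCI-H929 (52.9%, 27.8 to 77.0), against 38.4%. IRF4 retained 4 of 14 in MM1.S (28.6%, 8.39 to 58.1), against 9.76%. It retained 0 of 30 in NCI-H929 (upper limit 11.6%), against 0.888%. Regions of 1 gene share their surroundings and are not independent, and the intervals do not allow for that. For the 4 myeloma pairs the interval included the share of the whole list.

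Retained regions in SCLC were not confined to POU2F3. At POU2F3 the antibody retained 7 of 13 regions in NCI-H526 and 7 of 7 in NCI-H1048, HA-POU2F3 retained 6 of 9 and 4 of 9, HA-POU2AF2 retained 3 of 10, and the unnamed HA protein retained 0 of 5. The antibody and HA-POU2F3 counts include the ARHGEF12 start. At POU2F1 the antibody retained 7 of 24 and 5 of 11, and HA-POU2F3 retained 6 of 18 and 1 of 4. At POU2F2 the counts were 3 of 11 and 3 of 3, and 3 of 9 and 0 of 2. HA-POU2AF2 retained none of its 12 regions at POU2F1 and none of its 4 at POU2F2, so the start, +8.9 kb and +18.6 kb regions of POU2F3 were its only ones at the 3 genes in AU-15330. High regions were retained more often throughout: of the top decile of regions by level, 76.4% were retained with the POU2F3 antibody in NCI-H526, 48.4% with HA-POU2F3 in NCI-H526, 8.09% with HA-POU2AF2, 82.5% with the antibody in NCI-H1048 and 25.7% with HA-POU2F3 in NCI-H1048. By level, POU2F3 regions were concentrated in that decile, with 8 of 13, 8 of 9, 9 of 10, 4 of 7 and 3 of 9 in the same order, and 6, 6, 3, 4 and 3 of them were retained. The top decile by fold, which takes the local background into account, held only 1 of 13, 3 of 9, 0 of 10, 2 of 7 and 2 of 9.

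Most lost regions would have been called at an unchanged level. Had its level stayed the same, a region would still have been called in the AU-15330 library for 28 of the 31 lost with the POU2F3 antibody in NCI-H526, 21 of 21 with HA-POU2F3 in that line, and 17 of 23 with HA-POU2AF2. The corresponding counts were 6 of 6 and 10 of 10 in NCI-H1048 for the antibody and HA-POU2F3, 12 of 12 and 10 of 10 in MM1.S for POU2AF1 and IRF4, and 8 of 8 and 29 of 30 in NCI-H929. The same holds for most regions of the whole lists. Of all DMSO regions, retained or lost, 88.4%, 100% and 55.6% would have been called in the NCI-H526 pairs, in the order above. In the other pairs with levels the share was 97.8% to 100%. The check takes the DMSO summit height without its counting error. Since nearly every region of those lists passes it, it cannot show why a region was lost.

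At retained regions, the pooled ratio of tagged POU2F3 over the 3 genes lay below that of its whole list. The median ratio of AU-15330 to DMSO level over the 3 genes was 0.358 for HA-POU2F3 in NCI-H526 (whole list 0.642) and 0.37 in NCI-H1048 (whole list 0.728), and it was 0.437 for HA-POU2AF2 (whole list 0.797). For the POU2F3 antibody it was 0.7 in NCI-H526 (whole list 0.635) and 0.902 in NCI-H1048 (whole list 1.27). POU2AF1 gave 0.733 in MM1.S (whole list 0.809) and 0.998 in NCI-H929 (whole list 0.979), and IRF4 gave 0.698 in MM1.S (whole list 0.733). By gene, HA-POU2F3 in NCI-H526 gave 0.345 at POU2F1 and 0.358 at POU2F3 but 0.97 at POU2F2, above its whole list. These medians rest on 3 to 17 retained regions and are descriptions. A ratio exists only for a region still called with AU-15330, so a low region enters only if it fell little, while a high one can fall further. No median over regions of matched level was made, and the part this played in the differences from the whole lists was not tested.

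Some regions appeared only with AU-15330. Of the AU-15330 regions at the 3 genes, those with no DMSO counterpart were 4 of 21 with the POU2F3 antibody in NCI-H526 (15.3% over the whole list), 1 of 17 with HA-POU2F3 (41.9%) and 0 of 3 with HA-POU2AF2 (83.8%). In NCI-H1048 they were 11 of 27 with the POU2F3 antibody (67.3%), 0 of 5 with HA-POU2F3 (73.7%) and 0 of 0 with the unnamed HA protein (72.0%). In MM1.S they were 4 of 11 with POU2AF1 (38.9%) and 3 of 7 with IRF4 (49.9%), and in NCI-H929 they were 3 of 12 with POU2AF1 (31.2%) and 1 of 1 with IRF4 (70.7%). Of the 11 in NCI-H1048, 5 lay at POU2F3, including the +0.977 kb region, the start of TLCD5 and, with the highest fold of the 5, an intronic region at +31.2 kb (fold 4.88). The highest gained fold at any of the genes was 6.12, with POU2AF1 in MM1.S at the exonic +66.5 kb region of POU2F3. That exonic region was otherwise a myeloma region: POU2AF1 rose there from 10.3 to 18.6 in NCI-H929 (ratio 1.81, 1.06 to 3.16), IRF4 in MM1.S was at 5.47 in DMSO only, and the single SCLC list with it, the POU2F3 antibody in DMSO-treated NCI-H526, had a level of 7.93.

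Level and fold ranked POU2F3 regions very differently in NCI-H526. The +18.6 kb region ranked 47 of 89902 by level but 7797 by fold with the POU2F3 antibody, 123 against 2342 with HA-POU2F3 and 144 against 3549 with HA-POU2AF2. In NCI-H1048 the ranks were 338 against 2432 with the antibody and 48 against 442 with HA-POU2F3. The local background, the other term of the fold, differed between the lines in the same place. Over the POU2F3 window its median was 5.75 times the library background with the antibody in DMSO-treated NCI-H526, against 1.3 over the whole list, 2.6 within 5 Mb and 1.82 over chromosome 11. In NCI-H1048 the window stood at 2.35 and the surrounding 5 Mb at 1.16. In NCI-H929 the 5 Mb value was 2.22 with POU2AF1 and 2.3 with IRF4, against whole-list values of 1.38 and 1.37, so it was raised there as in NCI-H526. Peaks were called without a control library, so the local background includes reads of the regions themselves, and the part this played in the ranks was not tested.

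**Figure D3:**
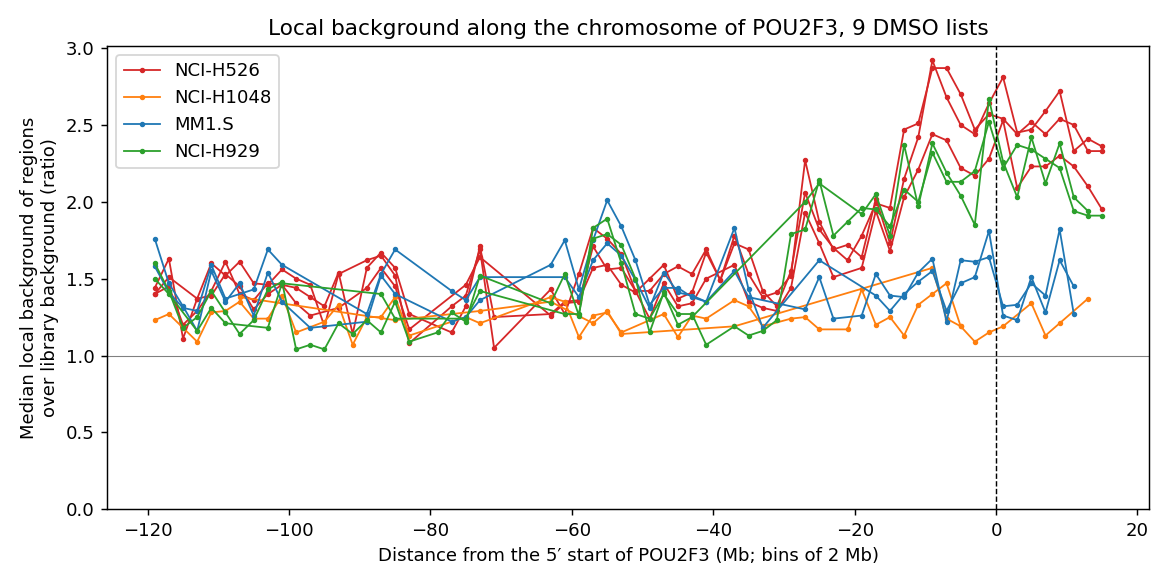
Median local background of regions, in multiples of the library background, along the chromosome that carries POU2F3, in bins of 2 Mb with at least 20 regions, for DMSO lists. NCI-H526 and NCI-H929 stand above NCI-H1048 and MM1.S around POU2F3, with medians within 5 Mb of 2.24 to 2.6 and 2.22 to 2.3 against 1.16 to 1.2 and 1.44 to 1.46.

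At POU2F2, binding in SCLC centred on 1 region. The region at +19.5 kb (chr19:42176669-42177515), which lies among annotated starts at 42176025 and 42177325, was called in all 10 DMSO lists and was the region of highest fold at POU2F2 in all 6 SCLC DMSO lists. With the POU2F3 antibody in DMSO-treated NCI-H1048 its fold was 18.5, rank 63 of 38036, the highest fold of any region at the 3 genes. SCLC summits in DMSO fell between 42176944 and 42176983, within 9 bases of an octamer core, whereas myeloma summits in DMSO fell between 42177125 and 42177345, from 151 to 371 bases away from the nearest core. With AU-15330 the POU2AF1 summit in NCI-H929 lay at 42176901, 52 bases from a core.

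With the POU2F3 antibody this region fell further in AU-15330 than the retained regions of POU2F3. In NCI-H526, 6 of the 13 regions of POU2F3 were lost and have no ratio to compare. At +19.5 kb of POU2F2 the values were as follows. The level was 38.2 and 7.41 in NCI-H526 (ratio 0.194, 0.106 to 0.33) and 48.1 and 16.5 in NCI-H1048 (ratio 0.342, 0.24 to 0.482). Neither interval reaches the ratio at the POU2F3 start or at +18.6 kb in the same libraries. With HA-POU2F3 in NCI-H526 the interval did reach them. The level was 32.1 and 6.88 (ratio 0.214, 0.116 to 0.373), and the region was lost in NCI-H1048, where its DMSO level was 18.4. HA-POU2AF2, at 24.9 in DMSO, and the unnamed HA protein, with a fold of 6.66, lost it. In myeloma, POU2AF1 went from 15.0 to 6.86 in NCI-H929 (ratio 0.458, 0.228 to 0.873) and lost the region in MM1.S, where its DMSO level was 12.5. IRF4, at 5.47 in MM1.S and 9.41 in NCI-H929, lost it in both lines.

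**Figure D4:**
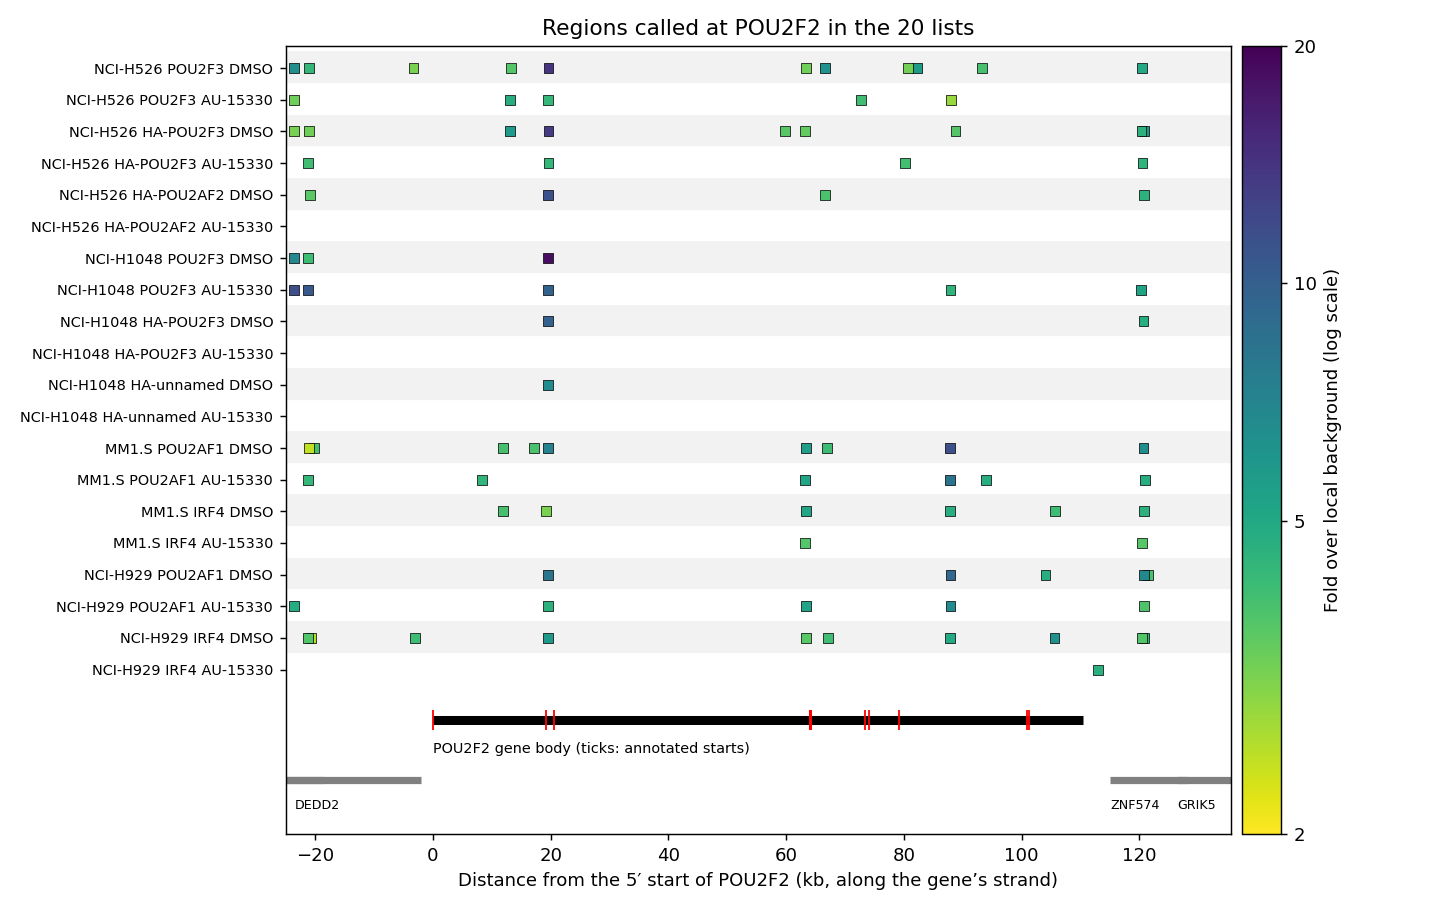
Regions called at POU2F2, plotted by distance from the gene's 5′ start (kb) in each of the 20 lists, with colour giving the fold over local background on a log scale; the gene body, its annotated starts and neighbouring genes are drawn below. The column at +19.5 kb runs through all 10 DMSO lists and the columns at +63.3 and +87.9 kb are filled mainly by myeloma lists.

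The myeloma coactivator had its highest POU2F2 fold elsewhere in the gene. POU2AF1 in DMSO peaked in both lines at the intronic +87.9 kb region (chr19:42108528-42108933), with a fold of 11.4 in MM1.S and 9.31 in NCI-H929. Its level there was 18.3 and 13.4 in MM1.S (ratio 0.733, 0.43 to 1.23) and 16.3 and 10.8 in NCI-H929 (ratio 0.663, 0.373 to 1.15), so neither fall exceeded counting error. IRF4, at 6.38 and 6.54, lost the region in both lines. The POU2F3 antibody called it in AU-15330 only, at 4.94 in NCI-H526 and 5.6 in NCI-H1048, and no list had an octamer core in the region. A cluster of inner starts near +63.3 kb (chr19:42133062-42133544) was retained in MM1.S by POU2AF1 (11.1 and 9.27) and by IRF4 (10.0 and 6.14). It was gained by POU2AF1 in NCI-H929 at 9.31, and the POU2F3 antibody and HA-POU2F3 lost it in NCI-H526. Inner starts at +80.2 kb and +72.8 kb were each called once, in AU-15330 lists of NCI-H526, at folds of 4.03 with HA-POU2F3 and 4.05 with the POU2F3 antibody.

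The outer edges of the POU2F2 window belong to neighbours. At the start of DEDD2, 21.0 kb before POU2F2, the POU2F3 antibody rose from 8.39 to 36.9 in NCI-H1048 (ratio 4.4, 2.69 to 7.57). At another DEDD2 start, 23.6 kb before POU2F2, it rose from 13.7 to 39.2 in NCI-H1048 (ratio 2.86, 1.91 to 4.4) and fell from 13.9 to 5.93 in NCI-H526 (ratio 0.427, 0.208 to 0.806). The start of ZNF574, 121 kb downstream of the POU2F2 start, was called in 13 lists of all 4 lines. POU2AF1 was lower there with AU-15330 in NCI-H929 (14.1 and 6.37, ratio 0.451, 0.218 to 0.88).

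POU2F1 had regions in every DMSO list, and the one at its start (chr1:167219839-167222523) was called in all 10 DMSO lists and 17 of the 20 lists. It held no octamer core in any list. With the POU2F3 antibody its level was 42.9 and 30.1 in NCI-H526 (ratio 0.702, 0.516 to 0.946) but 52.1 and 119 in NCI-H1048 (ratio 2.28, 1.84 to 2.83). HA-POU2F3 in NCI-H526 fell from 81.5 to 24.5 (ratio 0.301, 0.219 to 0.408), and in NCI-H1048 it was 26.6 and 14.9 (ratio 0.56, 0.348 to 0.885). In NCI-H1048 the endogenous-antibody signal at the POU2F1 start therefore rose while the tag signal fell. For POU2AF1 the region of highest level did not change beyond counting error, with 29.0 and 21.6 in MM1.S (ratio 0.746, 0.494 to 1.12) and 33.4 and 33.3 in NCI-H929 (ratio 0.998, 0.71 to 1.4), and IRF4 in MM1.S was at 13.2 and 9.65. A further POU2AF1 region of the same site was at 20.1 in DMSO in NCI-H929 (ratio 1.66, 1.13 to 2.46, against the same AU-15330 region), and one at 18.3 in MM1.S was lost. HA-POU2AF2, the unnamed HA protein and IRF4 in NCI-H929 lost the region. The region is broad, and its summits did not always match between treatments. For HA-POU2F3 in NCI-H526 they lay at 167220982 in DMSO and 167220212 in AU-15330, and for POU2AF1 in NCI-H929 at 167220195 and 167220791. With the antibody in NCI-H1048 they were close, at 167220567 and 167220586. Ratios here thus compare overlapping regions and not always 1 position.

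Octamer-bearing regions of the POU2F1 window lay inside the gene and on both sides of it. A full octamer stood at the region 18.6 kb before the gene start, called in 4 SCLC lists. The core alone stood at +210 kb, in the body of CD247, called in 8 SCLC lists. At the inner start at +108 kb (chr1:167328595-167329572), HA-POU2F3 in NCI-H526 fell from 81.5 to 23.7 (ratio 0.29, 0.21 to 0.395), and the POU2F3 antibody fell from 38.4 to 15.3 in NCI-H526 (ratio 0.398, 0.262 to 0.589) and from 23.4 to 14.8 in NCI-H1048 (ratio 0.633, 0.416 to 0.96). It was shared with myeloma POU2AF1, which fell in MM1.S from 21.4 to 9.78 (ratio 0.457, 0.254 to 0.793) and lost it in NCI-H929 from 19.3. Near another inner start, at +150 kb (chr1:167371029-167371562), only SCLC lists held a region. The POU2F3 antibody gave 45.1 and 31.1 in NCI-H526 (ratio 0.69, 0.509 to 0.923) and 30.5 and 19.8 in NCI-H1048 (ratio 0.649, 0.451 to 0.93), and HA-POU2F3 in NCI-H526 fell from 66.1 to 23.7 (ratio 0.358, 0.257 to 0.492). HA-POU2AF2 (19.8) and HA-POU2F3 in NCI-H1048 (14.0) lost it.

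**Figure D5:**
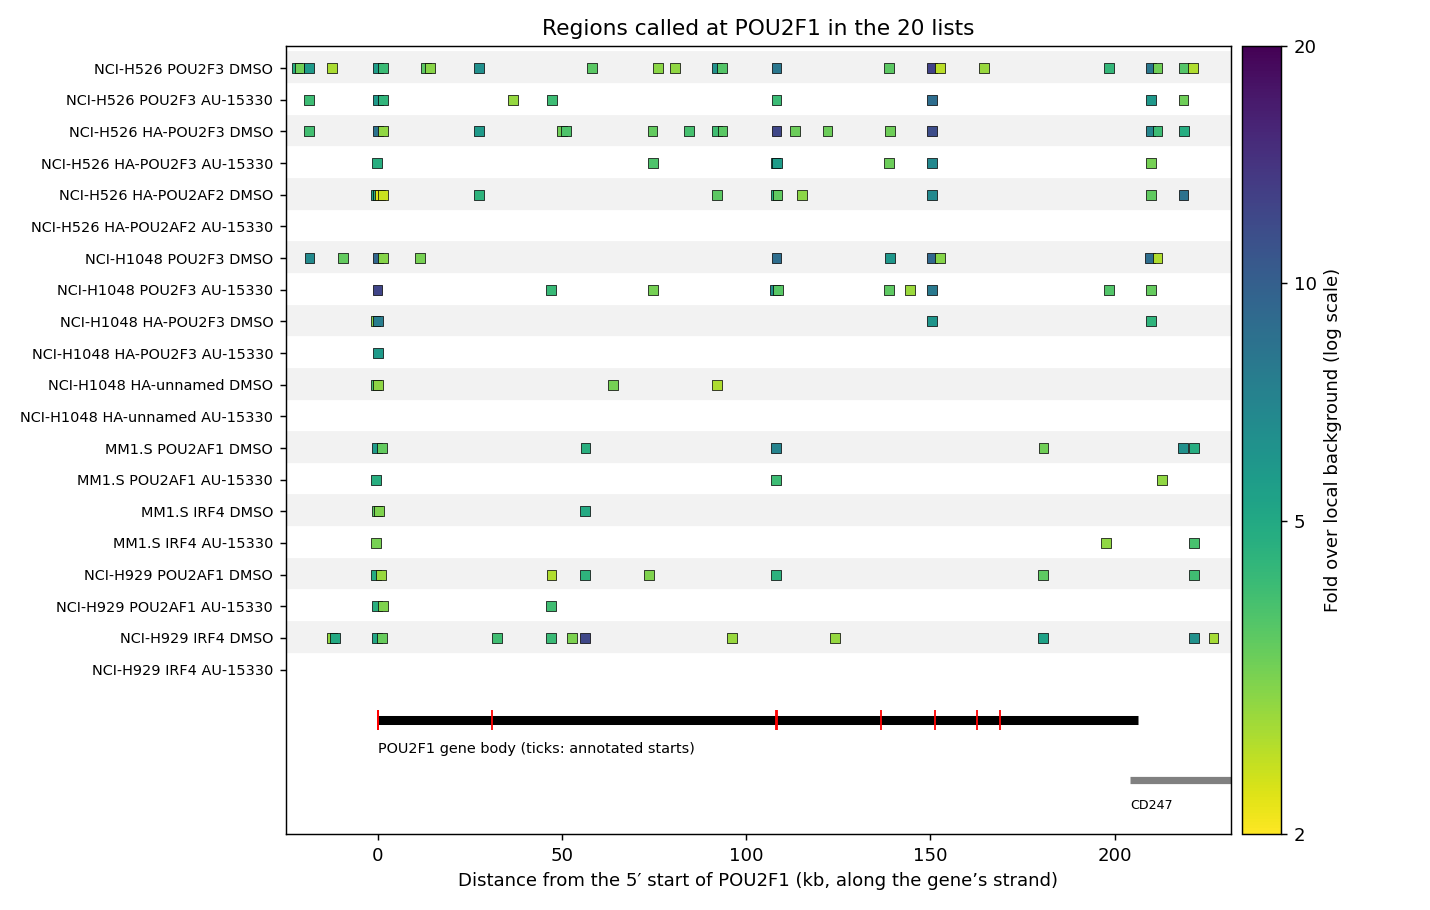
Regions called at POU2F1, plotted by distance from the gene's 5′ start (kb) in each of the 20 lists, with colour giving the fold over local background on a log scale; the gene body, its annotated starts and neighbouring genes are drawn below. The column at the start runs through 17 lists, the one at +150 kb is confined to 8 SCLC lists and the one at +56.3 kb to the 4 myeloma DMSO lists.

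Of the POU2F1 sites, 11 were called in myeloma lists only, and 1 of them was in all 4 myeloma DMSO lists. This intronic +56.3 kb region (chr1:167276923-167277462) was called in no AU-15330 list. With IRF4 in NCI-H929 its level was 74.4, rank 33 of 65176, and its fold was 12.3, rank 1446. The local background was raised in that list. Its median was 3.4 over the POU2F1 window and 3.25 within 5 Mb, against 1.37 over the whole list. In the SCLC DMSO lists with levels the median over the POU2F1 window was 2.26 to 2.84, against 1.2 to 1.3 over the whole lists. The POU2F1 levels given above for SCLC carry the same limit. At the +56.3 kb region, IRF4 in MM1.S gave a level of 14.6, and POU2AF1 gave 9.81 in MM1.S and 19.3 in NCI-H929. It held neither an octamer core nor a pair of GAAA elements set 2 bases apart, on either strand, within 100 bases of a summit. At the downstream neighbour CD247, HA-POU2AF2 had its highest POU2F1 fold, 8.38, at +219 kb and lost it with AU-15330.

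The 94 sites were also split by tumour. No such split was made over the whole lists, so the counts below are not read as particular to these genes. A total of 50 were called in SCLC lists only, 25 in myeloma lists only and 19 in both, and 51 were called in a single list. The 8 sites called in all 4 lines were the POU2F1 start and its +108 kb region, 4 at POU2F2 (+19.5 kb, +87.9 kb and the starts of ZNF574 and DEDD2) and the starts of TLCD5 and ARHGEF12 beside POU2F3. None of the 8 lay within the POU2F3 gene. By annotation, 12 sites lay at starts of the octamer factor genes, 8 at starts of neighbours, 50 in introns and 8 in exons. The ARHGEF12 start, called in 17 lists, held no octamer core near its summits. Its level rose from 11.5 to 34.2 with the POU2F3 antibody in NCI-H1048 (ratio 2.98, 1.93 to 4.78) and fell from 32.7 to 21.2 in NCI-H526 (ratio 0.649, 0.449 to 0.922). Regions shared by both tumours and seen in few lists included those 12.4 kb before POU2F1 and at +47.0 and +222 kb of it, and those 3.05 kb before POU2F2 and at +66.7 kb of it. The remaining regions near inner starts of POU2F3, at +64.8 and +68.9 kb, were each called once, with folds of 3.74 in NCI-H1048 given AU-15330 and of 3.63 with IRF4 in DMSO-treated NCI-H929.

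Summits were scanned for the octamer core, reading both strands of the 100 bases to either side. The core was found at 30 of 48 regions of the 3 genes with the POU2F3 antibody in DMSO-treated NCI-H526 (62.5%, 47.4 to 76.0), against 46.9% of the whole list, and at 14 of 21 in NCI-H1048 (66.7%, 43.0 to 85.4), against 44.4%. HA-POU2F3 gave 16 of 36 in NCI-H526 (44.4%, whole list 35.6%) and 8 of 15 in NCI-H1048 (53.3%, whole list 52.4%), and HA-POU2AF2 gave 12 of 26 (46.2%, whole list 46.1%). With the full octamer in place of the core, the antibody in NCI-H526 gave 22 of 48 (45.8%, whole list 35.3%). In myeloma the core was rare, at 1 of 19 and 0 of 14 regions with POU2AF1 and IRF4 in MM1.S (whole lists 7.29% and 4.59%) and at 3 of 17 and 1 of 30 in NCI-H929 (7.99% and 5.18%). The full octamer was split unevenly between the genes: with the POU2F3 antibody in NCI-H526 it stood at 13 of 24 regions of POU2F1 and 8 of 13 of POU2F3, but at 1 of 11 of POU2F2. A match is a description of the letters in the window and not of a bound site.

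The coactivator genes and other POU genes give context. In DMSO the POU2F3 antibody gave 23 regions at POU2AF1, 17 at POU2AF2 and 9 at POU2AF3 in NCI-H526, and 11, 6 and 7 in NCI-H1048. All 3 coactivator genes held regions in each SCLC DMSO list, whereas POU2AF3 held 0 in both MM1.S DMSO lists. All 3 octamer factor genes held a region in each DMSO list, which is the usual state of a gene: of 20007 protein-coding genes, the share with a region was 89.7%, 84.4% and 74.2% for the POU2F3 antibody, HA-POU2F3 and HA-POU2AF2 in NCI-H526. It was 76.5%, 51.5% and 51.3% for the POU2F3 antibody, HA-POU2F3 and the unnamed HA protein in NCI-H1048, 83.9% and 78.4% for POU2AF1 and IRF4 in MM1.S, and 81.3% and 90.5% in NCI-H929. Of 11 other POU genes (POU1F1, POU5F1 and the POU3F, POU4F and POU6F families, which act mostly in the pituitary, the nervous system or pluripotent cells), those with a region numbered 10, 8 and 7 in NCI-H526, 8, 7 and 5 in NCI-H1048, 7 and 7 in MM1.S, and 6 and 11 in NCI-H929, in the same order.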

How the data were processed

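ChIP-seq was performed on chromatin of 4 cell lines given DMSO or AU-15330, with 1 library per line, target and treatment. Per the study's methods and the submitters' processing notes, the authors used Trimmomatic 0.39 for trimming, BWA for alignment to GRCh38 (hg38), SAMtools and Picard for filtering, called peaks per library with MACS2 at a q-value of 0.05 without a control, and removed blacklisted regions. The deposited lists give for each region a score, a fold enrichment (ratio) over local background, and −log10 p and q values, and most give a summit.

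Summit height and local background were recovered from the deposited fold and −log10 p in the 18 lists with summits (tolerance 0.002 on the log10 p scale), and the level is the summit height over the library background. This was tested on simulated data. Read totals are not given in the sources used here. Gene bodies came from GENCODE 44. Every region in the windows was counted. Those described singly were the highest fold per gene and DMSO list, regions within 1 kb of an annotated start, regions retained at POU2F3 in SCLC, the highest gained fold, and regions shared by both tumours. The members and lists were chosen with earlier results of these data known. Python 3.11.15, pandas 2.3.3, NumPy 2.4.6, SciPy 1.17.1 and Matplotlib 3.10.9 were used. Alternatives were another overlap rule, equal list sizes, other windows and the full octamer. The sequence of 1 POU2F3 region is not reported here.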

Additional observations from a re-analysis of the deposited data

Results flagged for a closer look

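In each of these results the level of a region moved in opposite directions with AU-15330 in the 2 lines given the same antibody, and with 1 library per line and treatment the difference was not tested. With the POU2F3 antibody this held for 6 of the 12 sites retained in both SCLC lines. The ratio in NCI-H526 and then in NCI-H1048 was 0.702 and 2.28 at the POU2F1 start, 0.427 and 2.86 at the DEDD2 start 23.6 kb before POU2F2, 0.773 and 1.21 at the POU2F3 start, and 0.7 and 1.05 at +18.6 kb of POU2F3. It was 0.912 and 2.42 at +55.0 kb of POU2F3 and 0.649 and 2.98 at the ARHGEF12 start. The median over each whole list was also on opposite sides of 1, at 0.635 in NCI-H526 and 1.27 in NCI-H1048. So was the background of the AU-15330 library over that of its DMSO library, at 0.502 and 1.34, and the part this played was not tested. With HA-POU2F3 the ratio was 0.494 and 1.37 at the ARHGEF12 start, 1 of 5 sites retained in both lines, and with POU2AF1 it was 0.645 in MM1.S and 1.35 in NCI-H929 at the same start, 1 of 4. IRF4 retained no site in both myeloma lines. At the POU2F3 start and at +18.6 kb the NCI-H1048 intervals (0.889 to 1.66 and 0.788 to 1.39) include no change.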

How the results depend on the processing

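No paired analysis was possible because each line, target and treatment has 1 library, and the result comes from no test. Of 68 recomputed shares of retained regions, 64 stayed within the exact interval of the reported share, as did 16 of 18 octamer shares. For the 8 median level ratios the only alternative was the nearest AU-15330 summit. It returned the same value each time, so it does not show how stable these medians are. When both lists were cut to an equal number of regions of highest fold, the share retained at the 3 genes was 100% (8 of 8) with the POU2F3 antibody in NCI-H526, 83.3% (10 of 12) with HA-POU2F3 in that line and 0.0% (0 of 2) with HA-POU2AF2. Few regions enter at that setting. When at least 50% of the DMSO region had to be covered, HA-POU2F3 in NCI-H526 retained 25% (9 of 36). With the full octamer in place of its core, the share was 45.8% with the POU2F3 antibody in DMSO-treated NCI-H526 and 0.0% with IRF4 in DMSO-treated NCI-H929. The cause of these moves was not tested. The reported share of HA-POU2AF2 lay above the 1.26% retained over its uncut list, and its 0 of 2 comes from the lists cut to equal size. No whole-list share was computed for the cut lists, so the shares at that setting have no matching baseline. Read totals are unknown, the local background was estimated without a control, and the lost regions of the HA-POU2AF2 pair include 6 of 23 that would not have been called at an unchanged level.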
